A study of Mus musculus with 6 samples.

Results

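The Hox genes were described here across DRGs of male mice that had received microinjections of virus. Every row of the deposited count table was taken whose symbol is Hoxa, Hoxb, Hoxc, or Hoxd followed by a number, which gave 39 of 48440 rows. All mice were wild type, and the virus went into the L3/4 DRGs of one side. In the AAV5-Gfp group (3 libraries), the adeno-associated virus expressed green fluorescent protein. In the AAV5-V1+V2 group (3 libraries), a mixture of viruses expressed the variants V1 and V2 of NIS-lncRNA, a long noncoding RNA induced by nerve injury. The text deposited with the data gives collection at 5 weeks after microinjection in one sentence and an analysis at 4 weeks in another. Values listed by library follow the order of replicates 1, 2, and 3 of a group. The virus preparation and the transcripts it carried cannot be told apart in this design. Neither the number of mice behind each library nor separate animals are stated, so that p-values measure the spread between these libraries, which may be technical. The comparison asks which genes respond to NIS-lncRNA in the DRG, and for the Hox genes also whether both groups of ganglia carried the same axial identity.

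Hox genes encode homeodomain transcription factors that give cells along the head-to-tail axis their position. They lie in 4 clusters, and their order along the chromosome follows the order in which they are expressed along the body, with low paralog numbers toward the head and high numbers toward the tail. A paralog group holds the genes with the same number in different clusters. In the vertebral column, group 10 is known for lumbar and group 11 for sacral identity. Neurons and connective tissue cells keep much of this code in the adult, and in the spinal cord and ganglia it takes part in setting up neuronal subtypes and their connections.

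Total counts ranged from 32025612 to 34764282 per library. The labelled tissue was checked with marker genes. The 14 pan-neuronal markers summed to between 6662.95 and 11089.1 CPM (counts relative to library size, as edgeR scales them) and the 8 Schwann cell markers to between 3433.07 and 4232.39 CPM. The 10 spinal cord markers summed to between 29.4 and 32.1 CPM, and 1 of the 4 tested, Gfap, was higher with AAV5-V1+V2. Of this list, Gfap (131 to 338 counts), Aqp4 (132 to 225), and Aldh1l1 (498 to 629) were counted in every library. In the spinal cord these are astrocyte genes. Slc5a7 (60 to 77) was counted in every library too, and at low counts so were Olig1 (2 to 8), Mog (2 to 9), and Slc6a5 (1 to 8). Olig2, a factor of oligodendrocytes and motor neuron progenitors, had at most 1 count, Mnx1 at most 2, and Chat at most 3. Which cells gave the counts of this list was not tested. The 6 sympathetic markers summed to between 3.38 and 5.74 CPM, and 0 of the 2 tested passed. Npy (43 to 133 counts) and Slc18a1 (34 to 72) were counted in every library, and Dbh, the noradrenaline-making enzyme, had at most 3. The groups differed in other cell types, as 8 of 8 macrophage markers and 8 of 8 lymphocyte markers were higher with AAV5-V1+V2. Of all genes tested, 10.1% were higher and 5.27% lower. Of 8 fibroblast markers, which mark connective tissue that also keeps Hox expression, 3 were higher and 0 lower. Their sum was 1536, 1638, and 1255 CPM with AAV5-Gfp against 2920, 2206, and 1957 CPM with AAV5-V1+V2, without overlap, and the part of these cells in the Hox values was not tested. The 6 skeletal muscle markers summed to 354 CPM in AAV5-Gfp replicate 2 and to between 7.49 and 102 CPM in the other 5 libraries, and the part of muscle in the Hox values was not tested.

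In the GRCm38 assembly and the GENCODE M21 annotation, the Hoxa cluster (11 genes) lies on chromosome 6 and ends at 52260880, the Hoxb cluster (10 genes) spans 96194316 to 96368256 on chromosome 11, the Hoxc cluster (9 genes) 102921103 to 103036852 on chromosome 15, and the Hoxd cluster (9 genes) 74668310 to 74765142 on chromosome 2. The promoters of Hoxa10, Hoxa11, and Hoxa13 are shown because the Hoxa cluster passed from a well-detected gene to an undetected one over these 3 neighbors, and that of Hoxc4 because Hoxc4 was the gene that differed between the groups. RefSeq windows (GRCm38.p6, 250 bases before to 50 after an annotated start) were matched by symbol for 22 of the 39 genes. Capitals mark matches to TATAAA or CCAAT on either strand.
Hoxa10, chr6:52234890-52235189, minus strand: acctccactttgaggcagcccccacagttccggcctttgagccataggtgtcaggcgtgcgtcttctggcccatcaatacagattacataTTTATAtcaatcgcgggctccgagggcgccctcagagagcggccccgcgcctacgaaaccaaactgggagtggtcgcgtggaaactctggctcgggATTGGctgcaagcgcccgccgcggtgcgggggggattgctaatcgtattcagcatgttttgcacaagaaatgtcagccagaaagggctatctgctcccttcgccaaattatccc
Hoxa11, chr6:52245761-52246060, minus strand: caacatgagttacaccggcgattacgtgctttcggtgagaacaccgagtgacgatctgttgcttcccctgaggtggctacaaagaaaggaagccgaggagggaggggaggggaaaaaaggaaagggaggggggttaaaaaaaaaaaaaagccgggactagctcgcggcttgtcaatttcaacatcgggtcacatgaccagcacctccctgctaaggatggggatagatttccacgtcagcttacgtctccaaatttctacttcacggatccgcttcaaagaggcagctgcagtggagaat
Hoxa13, chr6:52260831-52261130, minus strand: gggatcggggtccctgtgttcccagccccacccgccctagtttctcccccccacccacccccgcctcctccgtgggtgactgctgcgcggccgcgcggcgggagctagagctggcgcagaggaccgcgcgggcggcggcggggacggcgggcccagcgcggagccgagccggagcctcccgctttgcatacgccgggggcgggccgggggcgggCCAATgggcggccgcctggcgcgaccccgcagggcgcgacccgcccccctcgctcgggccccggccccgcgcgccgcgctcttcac
Hoxc4, chr15:103034145-103034444, plus strand: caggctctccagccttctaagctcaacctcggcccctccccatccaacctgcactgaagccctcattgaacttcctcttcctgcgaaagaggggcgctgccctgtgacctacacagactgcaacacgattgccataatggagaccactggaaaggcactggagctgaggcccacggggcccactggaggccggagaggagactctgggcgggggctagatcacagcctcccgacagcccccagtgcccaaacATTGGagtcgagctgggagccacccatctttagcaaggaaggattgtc

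The Hoxa10 window belongs to the more downstream of its starts and held TATAAA at -160 and CCAAT at -64 from the start. The Hoxa11 window held neither motif, the Hoxa13 window held CCAAT at -36, and the Hoxc4 window at 2. The Hoxc4 window lies within the annotated gene, which begins at 103018934, so it is not that of the most upstream start. Over all 24 windows of Hox genes, CCAAT was present in 62.5% against 37.4% of all 32851 windows, TATAAA in 16.7% against 13.6%, and TGATTNAT, a sequence that Pbx and Hox proteins bind together, in 8.33% against 3.22%. The GC content of the Hox windows ranged from 39.7% to 81.0%, with the Hoxa13 window at the upper end. These matches describe the sequence only.

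Hox transcripts were detected from the head end of the clusters to paralog group 10, and fell off behind it. To compare genes of different length, counts were divided by the kilobases of exon and scaled to the same total over all genes with a known length in each library (as for TPM), which is called the level here. Summed over the 39 genes, the level was 99.7 ± 6.50 (SD, n = 3) with AAV5-Gfp and 85.7 ± 7.84 (SD, n = 3) with AAV5-V1+V2. It was 101.8, 104.8, and 92.4 with AAV5-Gfp and 77.0, 87.8, and 92.3 with AAV5-V1+V2. The ranges of the groups barely separate, with the lowest AAV5-Gfp library beside the highest AAV5-V1+V2 library. Summed Hox CPM was 190, 189, and 167 with AAV5-Gfp and 150, 164, and 173 with AAV5-V1+V2, so on that scale the groups overlapped. The Hoxc cluster held the most, with a mean level of 38.7 over the 6 libraries, followed by Hoxa (23.4), Hoxb (16.0), and Hoxd (14.7). The ranges of Hoxb (13.2 to 17.7) and Hoxd (11.5 to 17.1) overlapped.

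**Figure D1:**
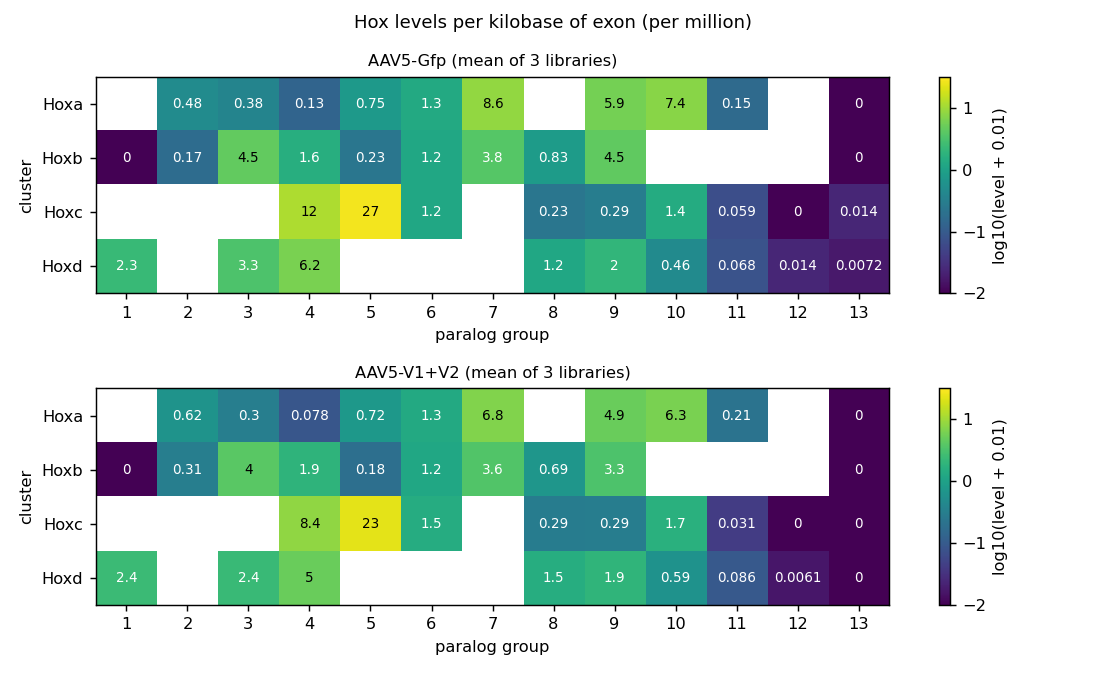
Mean level per kilobase of exon of each Hox gene, by cluster (rows) and paralog group (columns), in AAV5-Gfp (upper panel) and AAV5-V1+V2 (lower panel) DRGs. Color is the log10 of the level plus 0.01, the number in each box is the level, and white boxes have no gene or one that is not reported here. Hoxc5 is the highest gene in both groups (27.0 and 23.0), and paralog groups 11 to 13 are near 0.

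By paralog group, the level was highest in groups 4 (mean over 6 libraries 17.5) and 5 (26.0). Groups 3 (7.46), 7 (11.3), 9 (11.6), and 10 (8.94) were intermediate, while groups 1 (2.51), 2 (0.784), 6 (3.87), and 8 (2.38) were low. Groups 11 (0.302), 12 (0.00987), and 13 (0.0105) were the lowest. The largest fall in level between neighboring groups lay between groups 5 and 6, and as a ratio the fall from group 10 to group 11 was larger. The level of group 5 was 5.48 to 8.60 times that of group 6 in the same library, and the level of group 10 was 25.1 to 39.0 times that of group 11. Paralog groups 11 to 13 together held between 0.251% and 0.387% of the Hox level in any library.

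**Figure D2:**
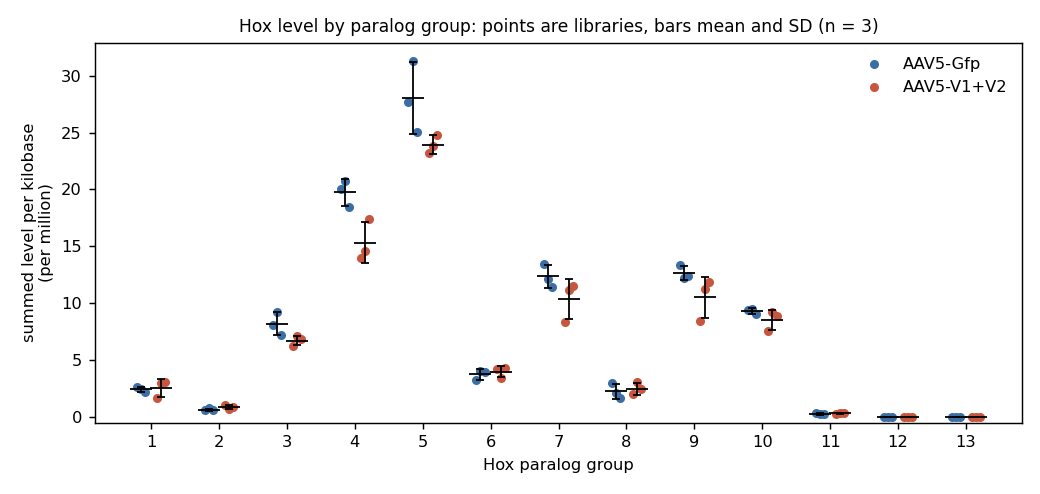
Summed level per kilobase of exon of each Hox paralog group. Points are libraries (blue, AAV5-Gfp; red, AAV5-V1+V2), and black bars give the mean and SD of 3 libraries. Groups 4 and 5 are highest in every library, and group 10 lies at 7.55 to 9.51 while group 11 lies at 0.241 to 0.358.

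The anterior genes, of paralog groups 1 to 3, held 11.3% ± 0.546 (SD, n = 3) of the Hox level with AAV5-Gfp and 11.9% ± 0.348 (SD, n = 3) with AAV5-V1+V2. These genes pattern the hindbrain and neck in the embryo. The highest of them by mean level was Hoxb3 (4.27), also the highest gene of the Hoxb cluster. Hoxb3 had 397, 473, and 274 counts with AAV5-Gfp and 335, 339, and 422 with AAV5-V1+V2. The groups overlapped, and the AAV5-Gfp libraries alone spanned a wider range than the AAV5-V1+V2 libraries. Of the exon length of Hoxb3, 52.9% is shared with Hoxb3os on the opposite strand, and whether the counting used strand is not given in the sources used here, so reads of the pair may not be told apart. Hoxd1, which takes part in the development of mouse nociceptors, had 65 to 113 counts and a mean level of 2.33 (chosen after its values were seen, as are all Hox genes below said to be so). Hoxb1, a hindbrain gene, had 0 counts in all 6 libraries.

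The genes of paralog groups 4 to 8, which pattern the neck and trunk, held 66.3% ± 0.772 (SD, n = 3) of the Hox level with AAV5-Gfp and 65.5% ± 1.57 (SD, n = 3) with AAV5-V1+V2. Hoxc5 was the highest of all 39 genes, with 27.0% of the Hox level. Its counts were 1642, 1959, and 1376 with AAV5-Gfp and 1476, 1478, and 1582 with AAV5-V1+V2. In counts and CPM, the AAV5-V1+V2 libraries lay inside the range of the AAV5-Gfp libraries. By level, AAV5-V1+V2 replicates 1 (22.2) and 2 (23.1) lay below the lowest AAV5-Gfp library (23.76). The lowest level of Hoxc5 in any library (22.2) was above the highest level of Hoxc4 (13.3), which came next. The annotated Hoxc5 gene (102967443 to 103017429 on chromosome 15) begins within Hoxc10 and runs across Hoxc9, Hoxc8, and Hoxc6, and 5.37% of its exon length is shared with Hoxc10, so a transcript that starts far upstream of the coding part counts toward it.

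The other members of paralog group 5 were far lower than Hoxc5. Hoxa5, which is needed for lung development, had 27, 21, and 35 counts with AAV5-Gfp and 32, 17, and 37 with AAV5-V1+V2. Hoxb5 had 15, 6, and 16 counts against 11, 17, and 4 in the same order. The fall from group 5 to group 6 therefore rested on Hoxc5, while Hoxa5 (mean level 0.734) and Hoxb5 (0.204) were below Hoxa6 (1.33), Hoxb6 (1.21), and Hoxc6 (1.34). Hoxb6 had 48, 60, and 32 counts with AAV5-Gfp and 39, 69, and 44 with AAV5-V1+V2, and Hoxc6 had 79, 42, and 52 against 75, 83, and 67. Both genes overlapped between groups. Hoxa6 was uneven among libraries of the same group, with 6, 31, and 32 counts with AAV5-Gfp and 35, 2, and 37 with AAV5-V1+V2.

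Hoxa7 was the highest gene of the Hoxa cluster and Hoxd4 of the Hoxd cluster. Hoxa7 had 541, 479, and 447 counts with AAV5-Gfp and 341, 435, and 462 with AAV5-V1+V2. After normalization every AAV5-V1+V2 library was below every AAV5-Gfp library for Hoxa7. Its exon length is shared at 20.4% with Hoxaas3, a noncoding gene on the opposite strand. Hoxd4 had 379, 350, and 356 counts with AAV5-Gfp and 255, 298, and 382 with AAV5-V1+V2, in the same order. The replicate 3 AAV5-V1+V2 library of Hoxd4 lay among the AAV5-Gfp libraries. Hoxd4 shares 52.3% of its exon length with genes on the same strand, mainly Hoxd3, which shares 62.4% of its own, so the split of reads between the pair is uncertain.

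The posterior genes, of paralog group 9 and of groups 10 to 13, were represented mostly by the start of the series. Group 9 held 12.7% ± 0.949 (SD, n = 3) of the Hox level with AAV5-Gfp and 12.2% ± 1.05 (SD, n = 3) with AAV5-V1+V2. Hoxb9, the last gene of its cluster before a long gap, had 231, 229, and 220 counts with AAV5-Gfp and 128, 209, and 209 with AAV5-V1+V2. The groups did not overlap after normalization, and AAV5-V1+V2 replicate 1 was far below the others. Hoxb13, at the far side of the gap, had 0 counts in all 6 libraries.

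Hoxa10, of the group known for lumbar identity, had 481, 527, and 436 counts with AAV5-Gfp and 364, 451, and 495 with AAV5-V1+V2. It shares no exon with another annotated gene, and its groups overlapped. The next gene of the cluster, Hoxa11 (chosen after its values were seen), had 13, 6, and 2 counts with AAV5-Gfp and 7, 10, and 13 with AAV5-V1+V2. The level of Hoxa10 was therefore 25.9 to 152 times that of Hoxa11 in the same library. Of the exon length of Hoxa11, 35.0% is shared with Hoxa11os on the opposite strand. Hoxa13, whose promoter is the last of the 3 shown for this cluster, had 0 counts in all libraries.

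The posterior limit was read in each cluster as the highest paralog number with over 3 counts in every library. It was Hoxa10, Hoxb9, Hoxc10, and Hoxd11. Hoxc10 had 57, 52, and 53 counts with AAV5-Gfp and 80, 65, and 58 with AAV5-V1+V2. All 3 AAV5-V1+V2 counts were above all 3 AAV5-Gfp counts, although after normalization the groups overlapped at 1.69 CPM. Hoxd11 had 4, 6, and 7 counts with AAV5-Gfp and 10, 7, and 6 with AAV5-V1+V2, so that the limit of the Hoxd cluster rested on few reads and moved to Hoxd10 with a minimum of 10 counts. Taken by group, the limits were the same in the Hoxb, Hoxc, and Hoxd clusters. In the Hoxa cluster the limit was Hoxa10 with AAV5-Gfp and Hoxa11 with AAV5-V1+V2, which rested on the 2 counts of 1 AAV5-Gfp library.

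The remaining tested members were given by range, and the members named here were chosen after their values were seen. In the Hoxa cluster, Hoxa2 had 12 to 27 counts per library, and Hoxa9, which is also a regulator of blood progenitors, had 494 to 689. Hoxa3 stood out by 1 library, with 106 counts in AAV5-Gfp replicate 2 and 11 to 48 in the other 5. AAV5-Gfp replicate 2 was also the library with the most muscle transcripts, whose part in this value was not tested. Of the exon length of Hoxa3, 25.4% is shared with genes on the opposite strand, Hoxaas3 among them. Hoxaas3 also had its highest count (230) in that library, and its part in this value was not tested either. In the Hoxb cluster, Hoxb2 had 6 to 29 counts, Hoxb4 67 to 122, Hoxb7 92 to 136, and Hoxb8 38 to 48. In the Hoxc cluster, Hoxc8 had 10 to 22 and Hoxc9 had 7 to 18 counts, so that both lay below Hoxc10 further back in the same cluster. The level of Hoxc10 was 3.68 to 10.2 times that of Hoxc9 in the same library. In the Hoxd cluster, Hoxd3 had 167 to 289 counts, Hoxd8 30 to 113, Hoxd9 73 to 100, and Hoxd10 15 to 35, a decline toward the posterior end of the cluster from Hoxd9 on.

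The position of the whole profile was summarized as the mean paralog number weighted by the level of each gene. This index was 5.91, 5.78, and 5.92 with AAV5-Gfp and 5.83, 5.97, and 5.89 with AAV5-V1+V2. The groups overlapped throughout, at 5.87 ± 0.0824 (SD, n = 3) against 5.90 ± 0.0712 (SD, n = 3), and the difference of 0.0270 was smaller than the SD of either group. Paralog groups 10 to 13 held 9.69% ± 0.412 (SD, n = 3) of the Hox level with AAV5-Gfp and 10.4% ± 0.495 (SD, n = 3) with AAV5-V1+V2. Within single clusters, the index of Hoxc was 4.99, 4.93, and 5.00 with AAV5-Gfp and 5.15, 5.12, and 5.05 with AAV5-V1+V2. These groups did not overlap, with a difference of 0.129. In the Hoxa (difference -0.0545), Hoxb (-0.259), and Hoxd (0.248) clusters the groups overlapped. No test was made on these scores. Over Hox genes that share no exon with another gene, a restriction chosen after the data were seen, the share of groups 10 to 13 was 18.6% for AAV5-Gfp against 17.9% for AAV5-V1+V2, so its small difference changed direction.

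Between the groups, 29 of the 39 Hox genes had enough counts to be tested, and 1 of them, Hoxc4, was lower with AAV5-V1+V2 (edgeR's quasi-likelihood test, called at a Benjamini-Hochberg adjusted p under 0.05 over 18593 genes). This is 3.45% of the Hox genes tested, whereas 5.27% of all genes tested were lower. No Hox gene was higher (0 of 29), whereas 10.1% of all genes tested were higher. DESeq2 and limma-voom each also gave 0 higher and 1 lower at an adjusted p under 0.05. At an unadjusted p under 0.05, edgeR and DESeq2 each had 0 Hox genes higher and 1 lower, and limma-voom had 1 higher and 2 lower. Of all genes tested, 19.2% were higher and 15.5% lower at that unadjusted p by edgeR. Every AAV5-V1+V2 library was below every AAV5-Gfp library for 3 Hox genes (10.3%), against 22.0% of all genes tested, and above for 0, against 23.4%. The log2 fold change was below 0 for 13 Hox genes and above 0 for 16, with a median of 0.02 beside -0.0003 over all genes tested.

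The 10 genes not tested were Hoxa4, Hoxa13, Hoxb1, Hoxb13, Hoxc11, Hoxc12, Hoxc13, Hoxd11, Hoxd12, and Hoxd13, named after their values were seen. Of these, Hoxa13, Hoxb1, Hoxb13, and Hoxc12 had 0 counts in every library, and a count of 0 allows up to 3 counts per library at this depth, for counting error only. Hoxa4, with 0 to 6 counts, was the only untested gene of groups 4 to 8. Precision varied widely among the tested genes. The 95% interval of the change lay within a 2-fold change for 19 of the 29 genes and within a 1.5-fold change for 6, and its median width was 1.09 on the log2 scale, against 0.615 over all genes tested. For the remaining 10 tested genes a 2-fold change was not excluded at this depth. The highest estimate was that of Hoxb2 (chosen after its values were seen), with a log2 fold change of 0.95 and an interval from -0.02 to 1.93, on 6 to 29 counts.

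**Figure D3:**
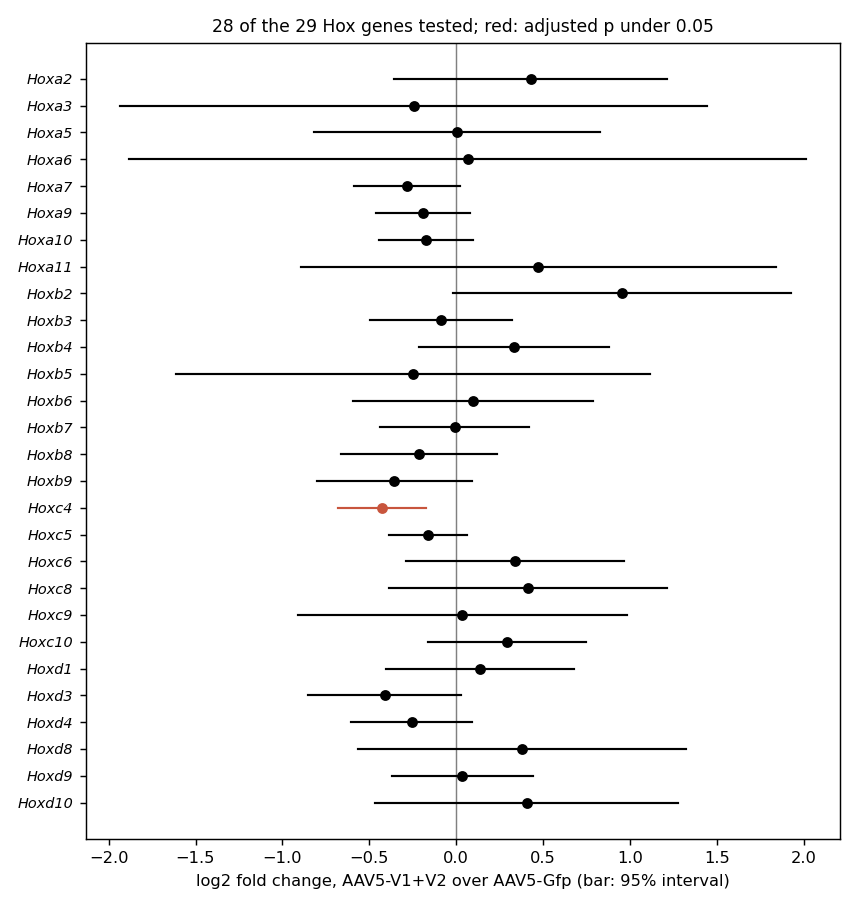
Log2 fold change of AAV5-V1+V2 over AAV5-Gfp DRGs for 28 of the 29 Hox genes tested, with 95% intervals from edgeR's quasi-likelihood fit. Hoxc4 (red) has an adjusted p under 0.05, and the intervals of the other genes shown include 0.

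Hoxc4, which with its group 4 paralogs helps to pattern the neck, had 596, 707, and 508 counts with AAV5-Gfp and 424, 445, and 505 with AAV5-V1+V2. After normalization the mean was 18.4 ± 2.06 CPM for AAV5-Gfp against 13.7 ± 0.951 CPM for AAV5-V1+V2 (both SD, n = 3), and the groups did not overlap. The log2 fold change was -0.43 (standard error 0.11, 95% interval -0.68 to -0.18, adjusted p = 0.0404 by edgeR's quasi-likelihood test). Hoxc4 shares no exon with another annotated gene. Leaving out AAV5-Gfp replicate 2, the library with the most muscle transcripts, moved the adjusted p of edgeR's test to 0.137 at a log2 fold change of -0.35. The call was also lost without AAV5-Gfp replicate 1 (adjusted p = 0.110) or 3 (0.0882), without AAV5-V1+V2 replicate 1 (0.0657) or 2 (0.113), with total counts for scaling (0.0657), and with the replicate number as a block (0.0559), all by the same edgeR test. Without AAV5-Gfp replicate 2 or 3, 0 of all genes tested were lower, so the loss there is not particular to Hoxc4. The log2 fold change kept its direction, between -0.51 and -0.07, in all 17 alternatives. Those that change only the threshold repeat the main estimate by construction.

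The most abundant Hox genes were also read as a set. The 9 genes with a mean of at least 5 CPM were Hoxa7, Hoxa9, Hoxa10, Hoxb3, Hoxb9, Hoxc4, Hoxc5, Hoxd3, and Hoxd4, a limit chosen after the values were seen, and they held 84.3% of the Hox counts. All 9 estimates were below 0, from -0.43 to -0.09 with a median of -0.26, although 8 of them did not pass the test. Of all 12500 genes with at least 5 CPM, 6401 were below 0 and the median was -0.01. Of the other 20 Hox genes tested, 4 were below 0 and 16 above, with a median of 0.11. The difference between these sets was not tested.

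The summed pan-neuronal markers were at 10964.6, 10252.6, and 11089.1 CPM with AAV5-Gfp and at 6662.95, 9215.21, and 9669.31 CPM with AAV5-V1+V2. All 3 AAV5-V1+V2 libraries were below the AAV5-Gfp libraries, and replicate 1 was the lowest. Of the 9 abundant Hox genes, 6 were also lowest in that library, while Hoxb3 (8.78 CPM) and Hoxc5 (44.1 CPM) were lowest in AAV5-Gfp replicate 3 and Hoxd3 (4.87 CPM) in AAV5-V1+V2 replicate 3. The 14 markers had a median log2 fold change of -0.41, and 2 of them (Rbfox3 and Pou4f1) were lower while 0 were higher, beside 5.27% and 10.1% of all genes tested. As a percentage of the summed marker CPM, the summed Hox CPM was 1.73%, 1.85%, and 1.51% with AAV5-Gfp and 2.25%, 1.78%, and 1.78% with AAV5-V1+V2, so that the order of the groups turned, with overlap. With counts scaled to the neuronal markers, 3 of the 9 abundant genes were below 0 and 6 above, with a median of 0.09. Their range was -0.07 to 0.27, and all 20 other Hox genes tested were above 0. Of all 12500 genes with at least 5 CPM, 1362 were below 0 and 11138 above with that scaling, with a median of 0.36. That scaling raised the median of all genes tested to 0.37. Under it, Hoxc4 was at -0.07 with an adjusted p of 0.795 by edgeR's test. Only 17 of all genes tested were lower with that scaling, so the loss of this call is not particular to Hoxc4. Fewer neurons, less RNA per neuron, and a larger part of RNA from other cells cannot be told apart in bulk ganglia. The part of each in the Hox values was not tested.

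**Figure D4:**
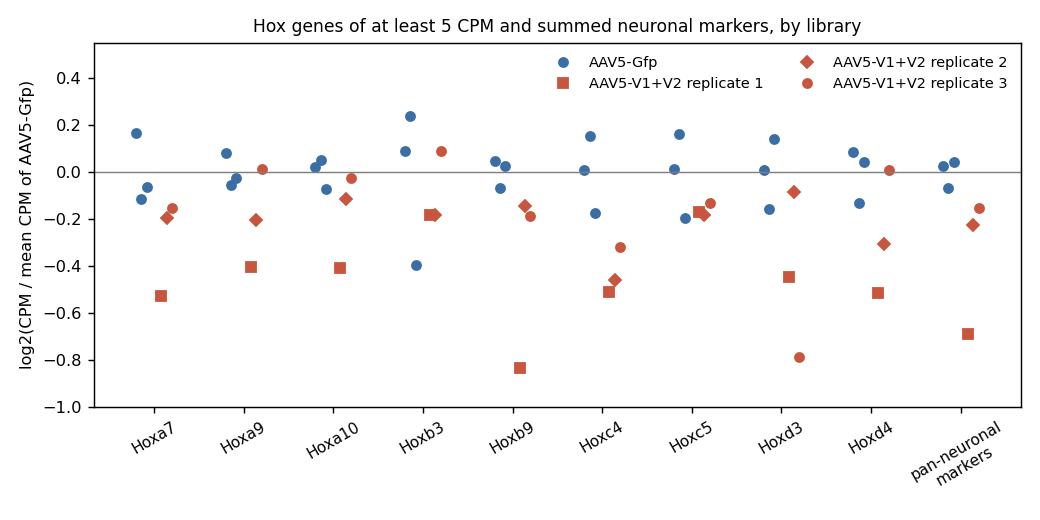
CPM of the 9 Hox genes with a mean of at least 5 CPM and the summed CPM of 14 pan-neuronal markers in each library, as the log2 ratio to the mean of AAV5-Gfp. Blue points are AAV5-Gfp libraries, and red squares, diamonds, and circles are AAV5-V1+V2 replicates 1, 2, and 3. AAV5-V1+V2 replicate 1 is the lowest of the 6 libraries for the neuronal markers, Hoxa7, Hoxa9, Hoxa10, Hoxb9, Hoxc4, and Hoxd4.

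Noncoding genes of the Hox clusters were at low to moderate counts and did not pass the test. Of 16 listed, 5 were tested, with 0 higher and 0 lower by edgeR, DESeq2, or limma-voom. At an unadjusted p under 0.05 edgeR had 1 lower, beside 15.5% of all genes tested. That gene was Hoxaas3, which lies across Hoxa7 on the opposite strand, with 136, 230, and 180 counts with AAV5-Gfp and 143, 102, and 145 with AAV5-V1+V2 (log2 fold change -0.51, standard error 0.21). Hotairm1, in the Hoxa cluster, had 49, 55, and 47 counts against 53, 64, and 61. Hoxb3os (log2 fold change -0.25) and Hoxd3os1 (-0.14) were also counted in every library, with 102 to 144 and 196 to 256 counts. Hottip, at the posterior end of the Hoxa cluster, had 0 counts in all libraries, as Hoxa13 did, and Hotair in the Hoxc cluster had at most 2. The hairpins of Mir10a, Mir10b, Mir196a-1, Mir196a-2, Mir196b, and Mir615, which lie within the clusters, were listed at 0 throughout.

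Hox proteins bind DNA together with cofactors of the TALE homeodomain family. All 9 cofactor genes were tested, and 2 were lower and 0 higher with AAV5-V1+V2, beside 5.27% and 10.1% of all genes tested. Meis2, which stabilizes Hox and Pbx complexes on DNA, had 557, 663, and 704 counts with AAV5-Gfp and 410, 424, and 511 with AAV5-V1+V2 (log2 fold change -0.56, standard error 0.13, adjusted p = 0.0306 by edgeR's test). Its relative Pknox2 had 3613, 3925, and 3838 counts against 2615, 3016, and 3367 (log2 fold change -0.38, standard error 0.09, adjusted p = 0.0358 by edgeR's test). For both genes every AAV5-V1+V2 library was below every AAV5-Gfp library, which held for 22.0% of all genes tested. Neither passed with the scaling to neuronal markers (Meis2 -0.19 and Pknox2 -0.02), nor without any single AAV5-Gfp library or without AAV5-V1+V2 replicate 2, where the adjusted p from edgeR's test ranged from 0.0544 to 0.129. Over all genes tested, 17 were lower with that scaling and 0 without AAV5-Gfp replicate 2 or 3, so these losses are not particular to Meis2 and Pknox2. The summed neuronal markers were lower in the same libraries, and their part in these changes was not tested.

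The other 7 cofactors did not pass. Pbx2 was at 0.11, Pbx3 at 0.13, Meis1 at -0.07, and Meis3 at -0.10. Pbx4 was at -0.44 (adjusted p = 0.0875 by edgeR's test) and Pknox1 at 0.29 (adjusted p = 0.102), and Pknox1 passed without AAV5-V1+V2 replicate 3 (0.0280). The family therefore had members with estimates on both sides of 0, with a median of -0.07.

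**Figure D5:**
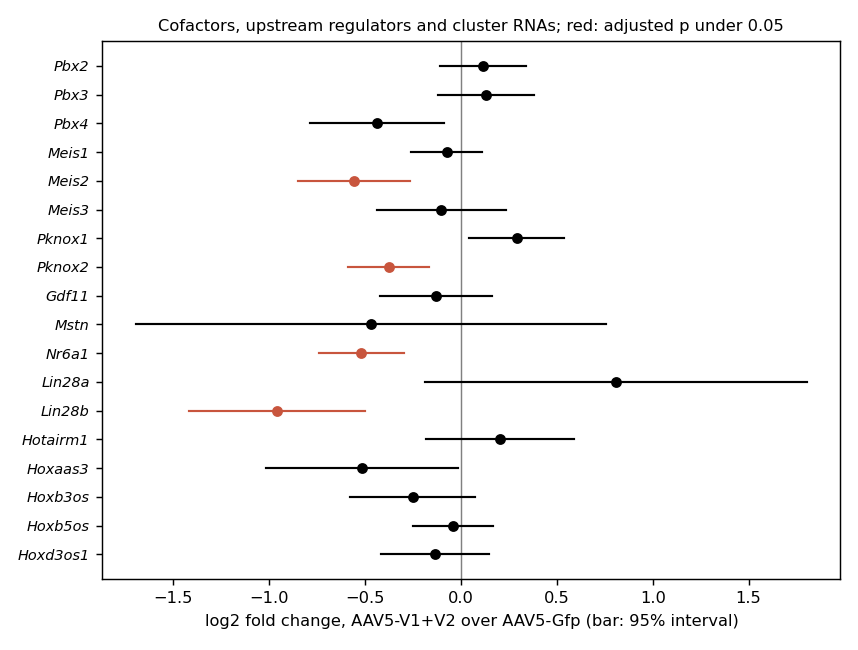
Log2 fold change of AAV5-V1+V2 over AAV5-Gfp DRGs with 95% intervals. Shown are 8 of the 9 tested TALE cofactors (Pbx2 to Pknox2) and noncoding genes of the Hox clusters (Hotairm1 to Hoxd3os1). Between them are the genes listed for the timing of Hox activation in the embryo, with Mstn (Gdf11 to Lin28b). Red marks an adjusted p under 0.05 from edgeR's test, which Meis2, Pknox2, Nr6a1, and Lin28b have.

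Genes that set the timing of Hox activation during extension of the embryonic trunk were examined next. Cdx1, Cdx2, and Cdx4, which activate posterior Hox genes in the embryo, had at most 3 counts in any library. Of the 5 genes tested in this list, 2 were lower with AAV5-V1+V2 and 0 higher, beside 5.27% and 10.1% of all genes tested. The list also held Mstn (3 to 20 counts, log2 fold change -0.47), which did not pass. Nr6a1, a nuclear receptor of the trunk stage, had 2732, 3057, and 3164 counts with AAV5-Gfp and 1949, 2072, and 2402 with AAV5-V1+V2 (log2 fold change -0.52, standard error 0.10). Lin28b, an RNA-binding protein that holds back let-7 microRNAs, had 325, 375, and 479 counts against 167, 228, and 230 (log2 fold change -0.96, standard error 0.20). Every AAV5-V1+V2 library was below every AAV5-Gfp library for both genes, as for 22.0% of all genes tested. Neither passed with scaling to neuronal markers (log2 fold change -0.15, adjusted p = 0.447 for Nr6a1 and -0.61, 0.0933 for Lin28b by edgeR's test), nor without any single AAV5-Gfp library or without AAV5-V1+V2 replicate 2. Over all genes tested, 17 were lower with that scaling and 0 without AAV5-Gfp replicate 2 or 3, so these losses are not particular to Nr6a1 and Lin28b. Gdf11, the signal that starts the switch from trunk to tail, was at -0.13 (standard error 0.12), and Lin28a, on 10 to 29 counts, at 0.81 (standard error 0.43).

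Retinoic acid is a signal that activates anterior Hox genes in the embryo. Of 18 genes of its synthesis, transport, and receptors, 2 were higher with AAV5-V1+V2 and 0 lower, beside 10.1% and 5.27% of all genes tested. Their median log2 fold change was 0.18. Dhrs3, one of the higher genes, which returns retinal to retinol, had 973, 993, and 785 counts with AAV5-Gfp and 1331, 1147, and 1182 with AAV5-V1+V2 (log2 fold change 0.38, standard error 0.10). The receptors Rara (0.69, standard error 0.21) and Rxra (0.40, standard error 0.13) did not pass. Polycomb and Trithorax proteins keep Hox genes silent or active after the embryo has set them. Of 23 such genes, 1 was higher and 0 were lower, beside 10.1% and 5.27% of all genes tested. The higher gene was Eed, a subunit of the complex that methylates histone H3 in silenced Hox chromatin (0.43, standard error 0.12). Rnf2 (0.34) and Wdr5 (0.24) did not pass. Dhrs3 and Eed each lost the call in 8 of 17 alternatives, namely without any single AAV5-Gfp library, without AAV5-V1+V2 replicate 1 or 2, with upper quartile normalization, with limma-voom, and with scaling to neuronal markers. Without AAV5-Gfp replicate 2 or 3, only 12 and 15 of all genes tested were higher. Macrophage and lymphocyte markers were higher in the same libraries, and their part in these values was not tested.

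Of 14 tested genes that flank the clusters, 2 were higher and 1 was lower with AAV5-V1+V2, beside 10.1% and 5.27% of all genes tested. Skap1, an adaptor of T cell signalling beside the Hoxb cluster, had 380, 214, and 226 counts with AAV5-Gfp and 2673, 1293, and 1297 with AAV5-V1+V2 (log2 fold change 2.65, standard error 0.37). Its relative Skap2, beside the Hoxa cluster and active in immune cells, was at 0.78 (standard error 0.21), and Chn1, a neuronal GTPase activator beside the Hoxd cluster, at -0.43 (standard error 0.11). Skap1 did not pass without AAV5-Gfp replicate 2 or 3 (adjusted p of up to 0.0875 by edgeR's test). Over all genes tested, leaving out these libraries gave 12 and 15 higher and 0 lower. Macrophage and lymphocyte markers (8 of 8 each) were higher in the same libraries, and their part in the values of Skap1 and Skap2 was not tested. Skap2 and Chn1 did not pass without any single AAV5-Gfp library, and Chn1 was at -0.08 with scaling to neuronal markers. Ttll6 (-0.65, standard error 0.20) did not pass. The Hox genes between these neighbors, except Hoxc4 in another cluster, did not pass the test.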

How the data were processed

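RNA was sequenced from microinjected DRGs with stranded libraries of total RNA. The authors deposited raw counts of reads per gene, without normalization, in 1 table of 48440 rows. Per the labels, the genome build was GRCm38 (mm10). The aligner, the counting program, its annotation, and its use of strand are not given in the sources used here. All 6 libraries were used, and totals ranged from 32025612 to 34764282 counts.

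Counts were analyzed in R 4.3.3 with edgeR 4.0.16 (filterByExpr by group, TMM, glmQLFit, and glmQLFTest without a covariate), and a gene was called at an adjusted p under 0.05 (Benjamini-Hochberg, over all 18593 genes tested). Standard errors were derived from each coefficient and its F statistic, and intervals are 95% intervals. Levels used the union of GENCODE M21 exons for 46283 rows, which held 98.53% of the counts. A floor of 3 counts per library was used. Within a group, the chi-square per degree of freedom between libraries was at least 8.836, so no library was a repeat of another. The calculations were tested on simulated data.

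The Hox genes and all 16 gene lists were chosen with earlier results of these data known. Named with all values were Hox genes called, the highest and the most posterior gene of each cluster, paralog groups at the steepest step, every TALE cofactor, and at most 4 genes of each other list, by smallest adjusted p. Alternatives covered RLE, upper quartile, and total count normalization, scaling to neuronal markers, filters, DESeq2 1.42.0, limma-voom 3.58.1, a replicate block, thresholds, and leaving out each library. Some genes that this rule names are not reported here.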

Additional observations from a re-analysis of the deposited data

How the results depend on the processing

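The number of lower Hox genes, 1 in the analysis as reported, was 0 with total counts only, 0 with scaling to neuronal markers, and 0 with the replicate number as a block. It ranged from 0 to 1 when each library was left out in turn, and only without AAV5-V1+V2 replicate 3 was it 1. No alternative gave a higher Hox gene at an adjusted p under 0.05, and at an unadjusted p under 0.05 between 0 and 2 were higher and between 0 and 3 lower. The median log2 fold change of the Hox genes was 0.35 with scaling to neuronal markers, -0.16 with a filter of at least 1 CPM in 3 libraries, which left 19 Hox genes, and between -0.10 and 0.11 when a library was left out. The difference in the share of paralog groups 10 to 13, AAV5-V1+V2 minus AAV5-Gfp, was 0.67 percentage points, between 0.39 and 0.89 when a library was left out, and -0.78 over genes that share no exon, a choice made after seeing the data. That of the position index lay between -0.02 and 0.06. The most posterior paralog of the Hoxd cluster was 10 with a minimum of 10 counts. The number of lower TALE cofactors was 0 with scaling to neuronal markers and 0 to 2 when a library was left out. Apart from the smaller filter and the scaling, the cause of these shifts was not tested.

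Same-numbered libraries had correlations of their deviations of 0.0378, 0.0649, and 0.139, and 4 of 6 libraries correlated best with their own number. Whether the numbers pair the libraries is not settled by these values, and the main fit used no block. With the replicate number as a block, edgeR called 2118 genes higher and 1341 lower, against 1872 and 980 without it. Leaving out AAV5-Gfp replicate 1 gave 257 and 59, replicate 2 gave 12 and 0, and replicate 3 gave 15 and 0 by edgeR, where 2029 and 1815 genes were lower at an unadjusted p under 0.05, and leaving out AAV5-V1+V2 replicate 2 gave 1020 and 150. Scaling to neuronal markers gave 1220 and 17, total counts 2277 and 774, and DESeq2 2405 and 1606. An adjusted p under 0.1 gave 2898 and 2030, and an unadjusted p under 0.05 gave 3577 and 2878, by construction. Genes with few counts limit the precision, since the filter removed 10 of 39 Hox genes. Without a filter 35 were tested, and the 4 with 0 counts were not.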
